A study of Homo sapiens with 36 samples.

Results

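THP-1 cells, a human monocytic line of leukaemic origin, were compared between a line that stably carries a short hairpin RNA against NR4A2 (shNR4A2) and a control line that carries a non-target hairpin (shNT), in the basal state at 5% CO2. The comparison held 6 of the 36 RNA-seq libraries of the series, chosen by their sample labels: 3 of shNR4A2 cells and 3 of shNT cells, without LPS. Both lines were made by lentiviral transduction and were held for 4 h in buffered medium in chambers at 5% CO2 before lysis. The other 30 libraries hold the same lines at 10% CO2 or with LPS (2.5 µg/ml for the last 2 h), and a line with a hairpin against NR4A3 (shNR4A3). Each hairpin is represented by 1 line, so depletion of NR4A2 and any other difference between the lines cannot be told apart, and in bulk RNA fewer cells of a type and less RNA per cell cannot be told apart either. The question asked here was which transcripts differed between resting shNR4A2 and shNT cells before any hypercapnic or inflammatory stimulus.

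NR4A2, also called NURR1, is an orphan nuclear receptor. With NR4A1 and NR4A3 it forms a family of early-response transcription factors whose activity follows the amount of the protein, since the pocket where other nuclear receptors take up ligand is filled by the side chains of the receptor itself. NR4A receptors bind DNA as monomers at the NBRE element, or as dimers, some of them with RXR. NR4A2 is best known from midbrain dopamine neurons, which need it to form, and in macrophages and microglia it recruits the CoREST corepressor to inflammatory promoters occupied by NF-kB.

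The 6 libraries held 17132910 to 23929138 counts, and 17720 genes passed the filter on low counts. The first principal component of the 500 most variable genes held 51.1% of the variance and separated the lines, with shNT libraries at -16.1 to -14.6 and shNR4A2 libraries at 13.8 to 16.1. The third component (13.6%) set replicate 2 of both lines apart from the others. All 9 markers of monocytic cells were detected, and their summed level was 1962 to 2397 TPM (counts scaled for gene length and library total) in shNT and 2922 to 3474 in shNR4A2 cells. Of these 9, edgeR called 4, all higher, and the difference in the sum lay mostly in LYZ and FCER1G. CD33, CD68, ITGAM, TYROBP and SPI1 were not called. Of 26 markers of other blood, epithelial, stromal and endothelial cells, 11 passed the filter and edgeR called 0, with 1 at an unadjusted p under 0.05, and the NK cell gene KLRD1 and the platelet gene PPBP had no count in any of the 6 libraries. Labels do not say whether replicates were separate cultures. The study calls its sequencing data representative of 3 individual experiments without tying libraries to them, and p-values measure the spread between these libraries. An exact two-sided permutation test of 3 against 3 libraries cannot give less than 0.1, and smaller values rest on the model.

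NR4A2 transcript was lower in shNR4A2 cells, and the level was low in both lines. The gene (ENSG00000153234, chromosome 2 of GRCh38, 156324432 to 156342348, minus strand) had 94, 54 and 85 counts in the shNT libraries and 47, 34 and 58 in the shNR4A2 libraries, which corresponds to 4.16, 2.83 and 4.08 TPM against 1.82, 1.63 and 2.41 TPM. No shNR4A2 library reached the lowest shNT library. The log2 fold change was -0.91 (standard error 0.23), a 1.88-fold difference with an adjusted p of 0.0337 by edgeR's quasi-likelihood test with Benjamini-Hochberg adjustment. The call was lost without shNT replicate 1 or 3 or without shNR4A2 replicate 1 or 2, at adjusted p of 0.0672 to 0.125 by edgeR.

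Neither of the other receptors passed the test. NR4A1, which patrolling monocytes need for their development, had 9.08, 7.16 and 6.34 TPM in shNT and 6.60, 8.10 and 5.89 TPM in shNR4A2 cells (log2 fold change -0.14, standard error 0.18, adjusted p = 0.74 by edgeR). NR4A3 had 20, 21 and 17 counts against 29, 23 and 54, with a log2 fold change of 0.67 (0.34, 0.296). In counts scaled to library size the groups overlapped for both genes, and for NR4A3 the difference in means came mostly from shNR4A2 replicate 3. NR4A2 was also lower in shNR4A2 cells at 10% CO2, with 2.34 TPM ± 0.828 (SD, n = 3) in shNT against 1.18 ± 0.178. With LPS its level was 62.7 ± 11.7 against 21.2 ± 6.78 TPM at 5% CO2 and 47.5 ± 3.82 against 15.3 ± 1.69 TPM at 10% CO2, and the log2 fold changes between lines were -1.02, -1.52 and -1.67 in these conditions (adjusted p = 0.0324, 0.00291 and 3.28e-07 by edgeR).

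**Figure D1:**
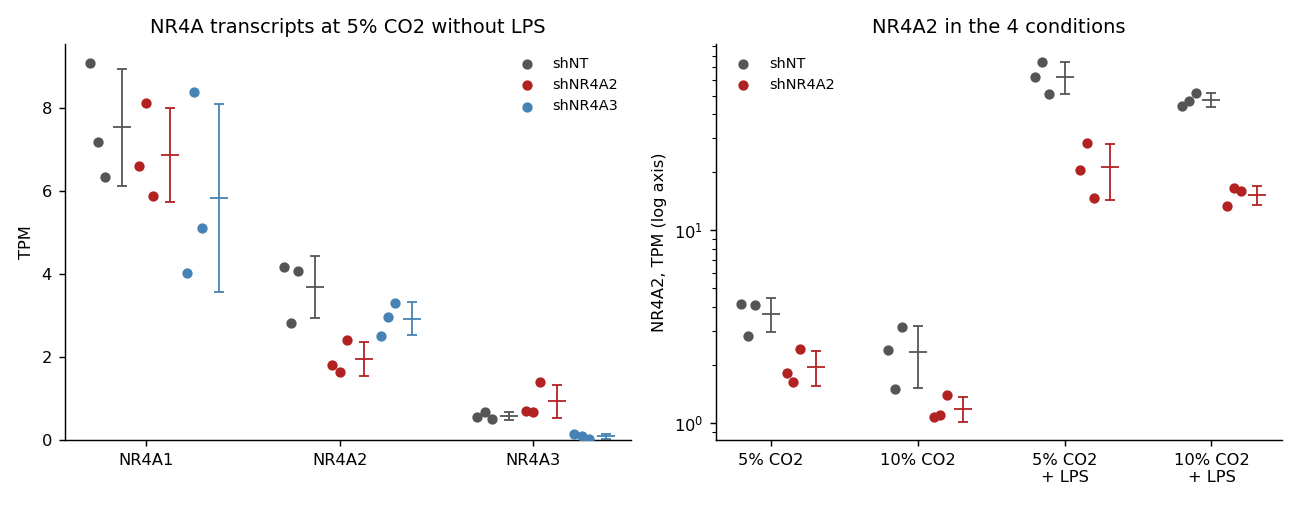
Left, TPM of NR4A1, NR4A2 and NR4A3 in each library of the shNT, shNR4A2 and shNR4A3 lines at 5% CO2 without LPS. Right, NR4A2 in shNT and shNR4A2 cells in the 4 conditions on a log axis. Points are libraries, and bars are the mean and SD of 3. In basal cells at 5% CO2 the shNR4A2 libraries sit at 1.63 to 2.41 TPM and the shNT libraries at 2.83 to 4.16 TPM.

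Across the transcriptome, 1008 of 17720 genes (5.69%) were called at an adjusted p under 0.05, 570 of them higher in shNR4A2 cells (3.22% of the genes tested) and 438 lower (2.47%). At an unadjusted p under 0.05 there were 3551. CPM here are counts scaled to the library total, adjusted by TMM. Of the called genes, 1007 had no overlap in CPM between the lines, against 25.0% of all genes tested. The median size of a called change was 0.80 on the log2 scale, 356 genes changed by at least 1 (253 higher and 103 lower), and 68 by at least 2. Protein-coding genes made up 935 of the calls, which is 6.73% of those tested, and long noncoding RNAs 51 (2.19%). The share of genes called ran from 3.35% to 8.37% over 23 chromosomes, whose median log2 fold changes lay between -0.10 and 0.05.

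With the replicate number as a block the number was 3803 (21.5% of genes), 1953 higher and 1850 lower, and 1006 of the 1008 genes were among them. Counts with the block in the lists below stand against this share of 21.5%. DESeq2 called 1287 of the 16017 genes to which it gave an adjusted p (8.04%), with 959 of the 1008 among them. Leaving out shNT replicate 3 or 2 reduced the edgeR number to 507 or 587, and leaving out shNR4A2 replicate 2 raised it to 1221. That library had 23968 genes with a count, against 28930 and 28407 in the other shNR4A2 libraries. Between shNR4A2 libraries, chi-square per degree of freedom was 21.5 for both pairs with replicate 2 and 10.5 for the remaining pair.

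**Figure D2:**
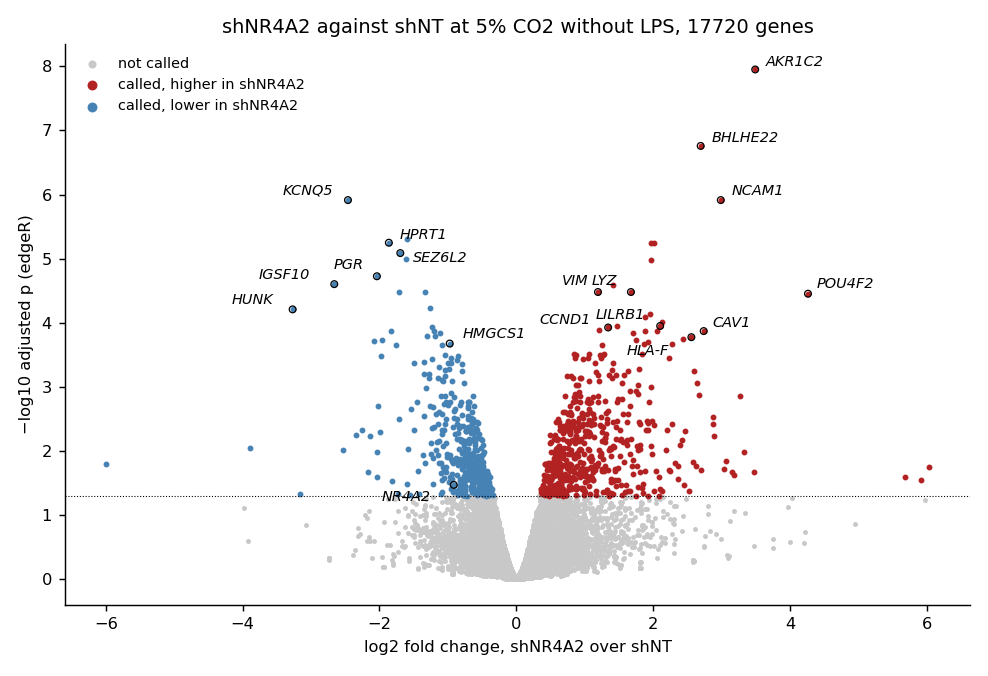
Log2 fold change of shNR4A2 over shNT cells (horizontal) against -log10 of edgeR's adjusted p (vertical) for the 17720 genes tested at 5% CO2 without LPS. Red and blue points are called genes, the dotted line is an adjusted p of 0.05, and circled points are genes named in the text. AKR1C2, at 3.49, has the smallest adjusted p, and NR4A2, at -0.91, lies just above the line.

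Of the 10 largest rises, 8 were in genes at a mean of no more than 2.18 TPM in shNT cells. POU4F2, a homeodomain transcription factor of retinal ganglion cells, had 0.335, 0.728 and 0.968 TPM in shNT and 8.61, 12.01 and 18.3 TPM in shNR4A2 cells (log2 fold change 4.26, standard error 0.36, adjusted p = 3.52e-05 by edgeR). NCAM1, the neural cell adhesion molecule CD56, went from 1.79, 1.57 and 1.61 to 10.4, 13.6 and 15.6 TPM (2.99, 0.16, 1.22e-06). BHLHE22, a basic helix-loop-helix repressor of neural tissue, was expressed in shNT cells at 17.5 to 18.0 TPM and stood at 101, 119 and 127 TPM in shNR4A2 cells (2.69, 0.12, 1.75e-07). In each of these genes the lowest shNR4A2 library was several times the highest shNT library.

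AKR1C2 was the most abundant of the 10 largest rises. It encodes an aldo-keto reductase that inactivates dihydrotestosterone and reduces other ketosteroids, and lies on chromosome 10 of GRCh38 (4987400 to 5018031). Its level was 53.4, 45.7 and 45.1 TPM in shNT against 580.4, 510.4 and 534 TPM in shNR4A2 cells, an 11.3-fold difference (log2 fold change 3.49, standard error 0.12, adjusted p = 1.12e-08 by edgeR). AKR1C1 and AKR1C3 are close in sequence and lie beside it, so the division of reads among these genes is uncertain. The other rises were CAV1 (caveolin-1, the coat protein of caveolae; log2 fold change 2.74), TWIST2 (a mesenchymal transcription factor; 2.67), HTRA3 (a secreted serine protease; 2.60), HLA-F (a non-classical MHC class I molecule, whose reads can be shared with its relatives; 2.56), GABBR2 (a subunit of the GABA-B receptor; 2.28) and FRG2 (a gene with near-identical copies, whose counts are uncertain; 2.23). Their adjusted p lay between 0.000135 and 0.00136 by edgeR. Another 3 genes rose by more than POU4F2 and 2 fell by more than HUNK, up to 6.04 and -6.00 on the log2 scale, and all 5 had a mean under 1 CPM.

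Among protein-coding genes with a mean of at least 1 CPM the largest fall was in HUNK, a serine/threonine kinase of the AMPK family (chromosome 21, 31873315 to 32044633), at 2.05, 2.86 and 3.67 TPM in shNT and 0.223, 0.391 and 0.278 TPM in shNR4A2 cells (log2 fold change -3.27, standard error 0.29, adjusted p = 6.18e-05 by edgeR). KCNQ5, a voltage-gated potassium channel, fell from 15.2, 14.9 and 18.5 to 2.72, 2.95 and 3.15 TPM (-2.46, 0.13, 1.22e-06). PGR, the progesterone receptor and itself a nuclear receptor, fell from 6.12, 5.73 and 8.66 to 1.62, 1.58 and 1.76 TPM (-2.04, 0.15, 1.88e-05). Libraries of the lines did not overlap in these 3 genes, which their selection required. KDR (the VEGF receptor VEGFR2; log2 fold change -2.26), PLXNA4 (a semaphorin co-receptor; -1.96), SLC4A4 (a sodium bicarbonate cotransporter; -1.98), ADGRG3 (an adhesion G protein-coupled receptor of granulocytes; -2.02), IGSF10 (-2.66) and FAM163A (-2.09) fell as well, with adjusted p of 2.5e-05 to 0.00472. Apart from KCNQ5, FAM163A and HPRT1, the 10 genes were expressed at a mean of 6.84 TPM or less in shNT cells.

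HPRT1 was the exception in level. This X-linked purine salvage enzyme, often taken as a reference gene, had 108, 114 and 132 TPM in shNT and 34.0, 33.5 and 29.7 TPM in shNR4A2 cells (log2 fold change -1.86, standard error 0.12, adjusted p = 5.64e-06 by edgeR). The shNR4A2 libraries lay within a narrow band far below the control libraries.

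**Figure D3:**
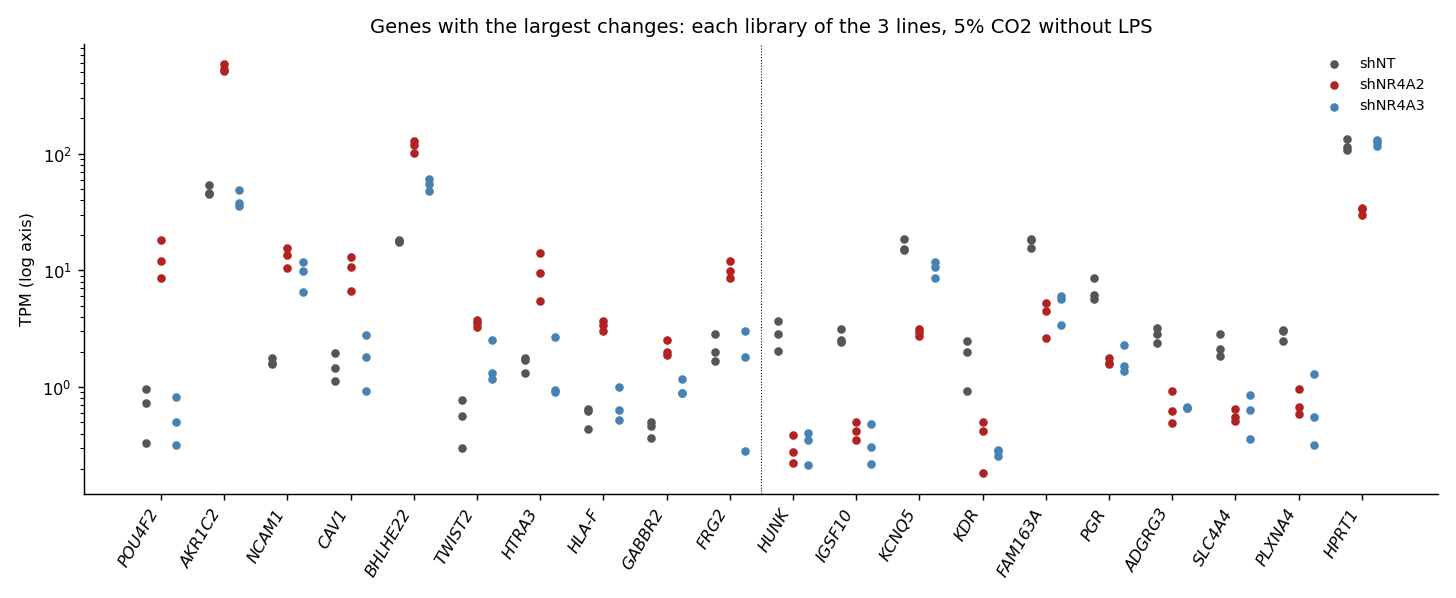
TPM on a log axis in each library of the shNT, shNR4A2 and shNR4A3 lines at 5% CO2 without LPS, for the 10 genes with the largest rise (left of the dotted line) and the 10 with the largest fall. In POU4F2, AKR1C2 and HPRT1 the shNR4A3 libraries lie among or close to the shNT libraries, and in HUNK and PGR they lie among or close to the shNR4A2 libraries.

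Among genes that were abundant in resting cells, the highest in mean level to rise by at least 1 on the log2 scale was LYZ, the secreted antibacterial enzyme lysozyme and a classical product of maturing monocytes. LYZ (chromosome 12, 69348341 to 69354234) had 198, 177 and 202 TPM in shNT and 675, 462 and 709 TPM in shNR4A2 cells (log2 fold change 1.68, standard error 0.14, adjusted p = 3.31e-05 by edgeR). VIM, the intermediate filament vimentin, went from 107, 109 and 104 to 235, 232 and 267 TPM (1.19, 0.10, 3.31e-05). AP1S2, a subunit of the clathrin adaptor AP-1, rose from 133, 78.9 and 98.1 to 315, 173 and 242 TPM (1.23, 0.21, 0.00409). In AP1S2 replicate 2 was the lowest library of both lines. MYBPH (a myosin-binding protein) rose with a log2 fold change of 1.05. HMOX1, the haem-degrading enzyme haem oxygenase 1, had 172, 81.5 and 133 TPM against 243, 203 and 372 TPM (1.08, 0.24, 0.0184), and this call did not hold with the replicate block (adjusted p = 0.126) or without replicate 3 of either line (0.0584 without that of shNT, 0.0508 without that of shNR4A2, by edgeR).

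Of abundant genes that fell, CKAP4, a reticulum membrane protein that also serves as a receptor at the cell surface, had 381, 404 and 392 TPM in shNT and 140.4, 219 and 174 TPM in shNR4A2 cells (log2 fold change -1.14, standard error 0.15, adjusted p = 0.000718 by edgeR). SEZ6L2, a neuronal membrane protein, fell from 149, 159 and 157 to 43.8, 54.6 and 45.1 TPM (-1.70, 0.12, 8.19e-06). LAMTOR5, a subunit of the Ragulator complex that anchors mTORC1 signalling at lysosomes, fell from 102, 100.3 and 97.6 to 50.9, 43.7 and 44.2 TPM (-1.11, 0.11, 0.000144). The libraries of the lines did not overlap in any of these, as in nearly all called genes. ALX1 (a homeodomain transcription factor) and TMEM119 (a membrane protein known as a marker of microglia) fell by 1.19 and 1.08 on the log2 scale.

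Surface markers of monocytes and macrophages were higher in shNR4A2 cells. Of 23 markers tested, edgeR called 9 higher and 0 lower (39.1%, against 5.69% of all genes), and the median log2 fold change was 0.59, against 0.00 over all genes. With the replicate block 17 were called higher and 1 lower, and without 1 library at a time between 5 and 11 were called higher. LILRB1, an inhibitory receptor for MHC class I, had 1.61, 1.46 and 1.10 TPM in shNT and 6.15, 5.71 and 6.14 TPM in shNR4A2 cells (log2 fold change 2.10, standard error 0.20, adjusted p = 0.000112 by edgeR). FCGR2B, the inhibitory Fc receptor for IgG, went from 2.46, 1.47 and 1.63 to 6.66, 5.70 and 7.64 TPM (1.84, 0.20, 0.000306), and LILRB4, another inhibitory receptor of the LILRB family, from 68.2, 63.8 and 57.3 to 133, 125 and 108 TPM (0.95, 0.12, 0.000718). These receptors belong to families of near-identical genes (FCGR2C, other LILRB genes), so the assignment of their reads is uncertain.

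Of the other 6, all but CD14 are named after their values were seen, as are the members of later lists for which only a log2 fold change is given and MS4A3. CSF1R, the receptor for the macrophage growth factor CSF1, had 101, 75.9 and 77.7 TPM in shNT against 162, 134 and 138 TPM in shNR4A2 cells (0.77, 0.13, 0.00434), and CD36, a scavenger receptor for oxidised lipids, 2.64, 1.71 and 2.73 against 6.39, 3.68 and 7.24 TPM (1.29, 0.23, 0.00617). CD14, the co-receptor that hands LPS to TLR4, had 32.2, 18.2 and 17.3 against 66.7, 39.9 and 44.0 TPM (1.15, 0.25, 0.0165 by edgeR). In CD14 and CSF1R replicate 1 was the highest library of both lines. No shNT library reached a shNR4A2 library in either, as in nearly all called genes that rose. FCER1G (the signalling chain of Fc receptors; log2 fold change 0.70), ITGAX (the integrin CD11c; 0.49) and MSR1 (a scavenger receptor, at no more than 0.293 TPM in shNT and at least 0.561 in shNR4A2 cells) also rose. The calls of CD14, ITGAX and MSR1 were lost without shNT replicate 2 or 3 or shNR4A2 replicate 1 (0.0509 to 0.121 over all fits that lost them), that of FCER1G without shNT replicate 3 (0.0574). ITGAX was lost also without shNR4A2 replicate 3 and MSR1 without shNT replicate 1. TYROBP, the partner chain of many of these receptors, and the pan-myeloid marker CD33 did not pass the test, with log2 fold changes of -0.04 and 0.11 (adjusted p = 0.908 and 0.607).

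**Figure D4:**
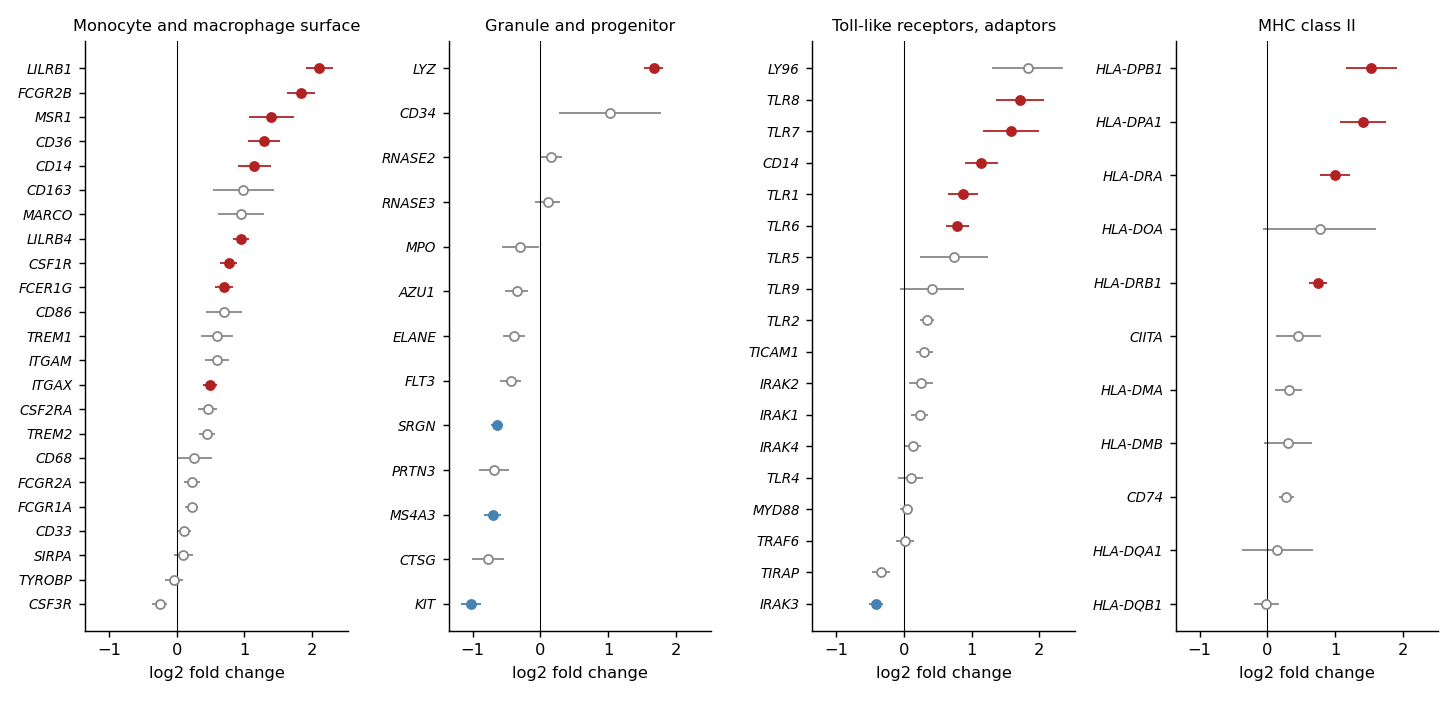
Log2 fold change of shNR4A2 over shNT cells at 5% CO2 without LPS for every tested member of 4 gene lists. Bars are standard errors, filled symbols are genes called by edgeR (red higher, blue lower) and open symbols are not called. Called genes lie to the right of 0 in the surface marker and MHC class II lists, and KIT, MS4A3 and SRGN lie to the left in the granule and progenitor list.

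Of 18 Toll-like receptors and adaptors tested, 5 were called higher and 1 lower (33.3%, median log2 fold change 0.32), and 9 and 2 with the replicate block. TLR8, an endosomal sensor of single-stranded RNA, had 0.686, 0.957 and 0.481 TPM in shNT against 3.22, 2.15 and 1.55 TPM in shNR4A2 cells (log2 fold change 1.71, standard error 0.35, adjusted p = 0.0138 by edgeR), and TLR7, its close relative, had a log2 fold change of 1.59 at 0.272 and 0.837 TPM on average. TLR6 and TLR1, which pair with TLR2 to bind lipopeptides and resemble each other in sequence, rose by 0.79 and 0.87. IRAK3, an inhibitor of Toll-like receptor signalling, fell by 0.41, and TLR4 itself was at 0.10 (adjusted p = 0.828). With CD14, these are the 6 calls of the list, and each was lost without at least 2 of the 6 libraries (0.05 to 0.158 by edgeR). TLR8 was lost without shNT replicate 3 or shNR4A2 replicate 1, TLR1 and TLR6 also without shNT replicate 2, TLR7 also without shNT replicate 2 or shNR4A2 replicate 3, and IRAK3 without shNT replicate 1 or 3 or shNR4A2 replicate 2 or 3. The number called higher was 0 to 6 when 1 library was left out.

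Of 11 genes of MHC class II presentation, 4 were called higher and 0 lower (36.4%, median 0.46), and 5 with the block. The 4 were chains of HLA-DR and HLA-DP, and the other 7 did not pass the test, the transactivator CIITA among them (0.46, adjusted p = 0.495). HLA-DRB1 had 193, 177 and 161 TPM in shNT and 320.4, 315 and 255 TPM in shNR4A2 cells (0.75, 0.13, 0.00472 by edgeR). HLA-DRA, its partner chain, had 10.7, 9.60 and 10.1 against 26.7, 18.8 and 15.3 TPM (1.00, 0.22, 0.0193), and HLA-DPA1 and HLA-DPB1 had log2 fold changes of 1.41 and 1.53 at no more than 2.68 TPM in any library. The calls of HLA-DRA, HLA-DPA1 and HLA-DPB1 were lost without shNT replicate 2 or 3 or shNR4A2 replicate 1 (0.0522 to 0.139, HLA-DPA1 also without shNT replicate 1), and reads of HLA genes can be shared between them.

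Complement genes changed in both directions, 2 higher and 1 lower of 13 tested (23.1%, median 0.06). C1QC and C1QA, chains of the recognition protein of the classical pathway that tissue macrophages make, rose by 2.89 and 2.28 on the log2 scale (standard errors 0.51 and 0.38, adjusted p = 0.00581 and 0.00383 by edgeR). They rest on few reads, with 3, 8 and 2 counts of C1QC in shNT and 57, 32 and 24 in shNR4A2 libraries, and 4, 6 and 9 against 39, 36 and 30 counts of C1QA. C3AR1, the receptor for the anaphylatoxin C3a, fell from 24.8, 26.5 and 25.3 to 13.7, 17.0 and 17.5 TPM (-0.67, 0.15, 0.0172), a call lost without shNT replicate 1 or 2 or shNR4A2 replicate 1 (0.0512 to 0.0775).

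Products of immature myeloid cells were lower where they passed the test, LYZ apart. Of 13 granule and progenitor genes, 3 were called lower and 1, LYZ, higher (30.8%, median log2 fold change -0.39). With the block 8 were called lower and 1 higher. KIT, the stem cell factor receptor, fell from 13.6, 12.1 and 13.9 to 7.69, 5.35 and 6.33 TPM (-1.03, 0.15, 0.00172 by edgeR), and MS4A3, a marker of granulocyte and monocyte progenitors, from 145, 184 and 199.7 to 101, 106 and 116 TPM (-0.71, 0.12, 0.00472). SRGN, the proteoglycan core that packs granule proteases, fell from 10613, 10662 and 10516 to 6722, 6688 and 7086 TPM (-0.63, 0.09, 0.00141). The 3 genes had no overlap between lines, as had 1007 of the 1008 called genes. The neutrophil proteases ELANE, PRTN3 and CTSG had log2 fold changes of -0.39, -0.68 and -0.78 and did not pass the test (adjusted p = 0.203, 0.0978 and 0.0794).

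Some transcription factors of the early response and of the macrophage state were higher in shNR4A2 cells. Of 21 AP-1, EGR and KLF factors, 5 were called higher and 0 lower (23.8%, median 0.32), and 10 higher and 1 lower with the block. FOS had 30.9, 29.8 and 25.6 TPM in shNT and 56.4, 54.0 and 51.9 TPM in shNR4A2 cells (log2 fold change 0.91, standard error 0.12, adjusted p = 0.00119 by edgeR). KLF4, a factor that drives monocytic differentiation, had 19.4, 15.3 and 16.9 against 38.6, 27.5 and 28.1 TPM (0.87, 0.15, 0.00592), and MAF, a factor of mature macrophages, 1.11, 0.866 and 0.818 against 4.17, 2.10 and 4.46 TPM (1.94, 0.28, 0.00173). FOSL1, an AP-1 subunit, had 38.9, 38.4 and 35.8 against 53.3, 61.5 and 53.1 TPM (0.57, 0.13, 0.0197), a call lost without any 1 of the shNT libraries (0.0506 to 0.108 by edgeR).

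Of 22 haematopoietic transcription factors, 0 were called higher and 2 lower (9.09%, median -0.07), and 3 and 7 with the block. MYC, a driver of proliferation that is high in leukaemic blasts, had 381, 391 and 449.7 TPM in shNT and 254, 265 and 272 TPM in shNR4A2 cells (-0.62, 0.09, 0.00199 by edgeR), and it was called in every fit that left out 1 library. GFI1, a repressor of myeloid genes that also works through CoREST, fell from 363, 426 and 425 to 297, 326 and 295 TPM (-0.40, 0.10, 0.0442), a call lost in 5 of the 6 fits that left out 1 library (all but that without shNR4A2 replicate 2, 0.0509 to 0.182). GFI1 was the only called gene in a list of 9 tested genes, the RXR partners, the CoREST subunits and GFI1 itself. With the block 1 of the list was called higher and 4 lower. Among 18 other nuclear receptors 1 was called, RARA, retinoic acid receptor alpha, with 48.1, 44.7 and 44.5 against 65.0, 73.2 and 55.8 TPM (0.50, 0.12, 0.0334, lost without any of the shNT libraries or shNR4A2 replicate 1, 0.0704 to 0.146; 4 higher and 4 lower with the block). Of 32 cell cycle and replication genes 1 was called (3.12%), CCND1 (cyclin D1), at 10.1, 9.01 and 10.1 against 27.3, 21.0 and 25.8 TPM (1.34, 0.13, 0.000118), and with the block 4 were higher and 7 lower.

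Adhesion molecules were called in 7 of 21 cases, 5 higher and 2 lower (33.3%, median 0.15), with 7 and 2 by the block. ITGAL, the alpha chain of the leukocyte integrin LFA-1, rose from 34.9, 35.7 and 35.1 to 60.6, 76.5 and 70.5 TPM (log2 fold change 0.97, standard error 0.11, adjusted p = 0.000364 by edgeR), and its beta chain ITGB2 by 0.62. ITGA6, the laminin receptor subunit, rose from 7.02, 4.11 and 4.66 to 21.2, 11.5 and 10.7 TPM (1.46, 0.26, 0.00648), with replicate 1 the highest in both lines. PECAM1 and CD44 rose by 0.63 and 0.59, and both calls were lost without shNT replicate 3 (0.0507 and 0.0572). ITGA4, the alpha chain of VLA-4, fell from 38.6, 40.4 and 41.6 to 26.9, 23.8 and 26.5 TPM (-0.64, 0.10, 0.00245), and ICAM3, a ligand of LFA-1, by 0.96, a call lost in all but 1 of the fits without a library (0.0628 to 0.137; it held without shNR4A2 replicate 2).

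Among 29 proteases and inhibitors, 1 was called higher and 1 lower (6.90%, median 0.05), and 4 and 8 with the block. CTSB, the lysosomal protease cathepsin B, had 148, 102 and 97.4 against 208, 169 and 167 TPM (0.65, 0.16, 0.0307 by edgeR, lost without shNT replicate 2 or 3 or shNR4A2 replicate 1, 0.105 to 0.126). Of 9 S100 genes 1 was called, S100A10, the partner of annexin A2 in plasminogen activation, with 123, 109.7 and 128 against 175, 170.5 and 214 TPM (0.63, 0.11, 0.00472), and 4 with the block.

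Cholesterol and lipid genes were called in 5 of 23 cases (21.7%, median 0.07), 3 lower and 2 higher, and 3 and 6 with the block. HMGCS1, which makes HMG-CoA for sterol synthesis, fell from 98.2, 105 and 126 to 54.2, 56.8 and 56.1 TPM (log2 fold change -0.97, standard error 0.10, adjusted p = 0.000211 by edgeR). IDI1, a later enzyme of the same pathway, and APOC1, an apolipoprotein of macrophages, fell by 0.50 and 0.83 and lost their calls without 1 library (IDI1 without shNT replicate 2 or 3 or shNR4A2 replicate 1, APOC1 without shNT replicate 1, 0.0522 to 0.0737), whereas INSIG1 and LPL rose by 0.46 and 0.61 and lost theirs without any shNT library or shNR4A2 replicate 2 or 3 (INSIG1) and without shNT replicate 1 or 2 or shNR4A2 replicate 3 (LPL, 0.0505 to 0.161 for both). Of 28 glycolytic and hypoxia-inducible genes 3 were called, all higher (10.7%, median 0.10), and 9 higher and 4 lower with the block. PFKFB3, the activator of glycolytic flux, went from 60.3, 47.6 and 48.8 to 90.1, 89.1 and 70.9 TPM (0.68, 0.13, 0.0106, lost without shNT replicate 3, 0.0563), and the hexokinases HK3 and HK1 rose by 0.58 and 0.53, each called in 2 of the 6 fits without a library (HK3 without shNT replicate 1 or shNR4A2 replicate 2, HK1 without shNR4A2 replicate 2 or 3, and 0.0508 to 0.167 in the rest).

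In the prostaglandin and leukotriene pathway 3 of 13 genes were called (23.1%, median -0.02), and 4 higher and 2 lower with the block. TBXAS1, thromboxane synthase, rose from 10.5, 10.8 and 9.80 to 19.0, 15.3 and 20.3 TPM (0.81, 0.13, 0.00373 by edgeR), and PTGS1, the constitutive cyclooxygenase upstream of it, from 23.8, 22.1 and 22.5 to 36.8, 35.3 and 33.9 TPM (0.63, 0.11, 0.00406). ALOX5, which starts leukotriene synthesis, fell from 107, 97.1 and 92.8 to 72.8, 77.9 and 75.0 TPM (-0.40, 0.10, 0.0451, lost without shNT replicate 1 or 2 or shNR4A2 replicate 1 or 3, 0.104 to 0.186). The lines did not overlap in any of the 3, as in 1007 of the 1008 called genes.

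Of 17 inflammatory cytokines 2 were called, both higher (11.8%, median 0.17; 3 higher and 2 lower with the block). IL1RN, the interleukin-1 receptor antagonist, had 22.8, 20.8 and 26.3 TPM in shNT against 39.6, 41.5 and 38.9 TPM in shNR4A2 cells (log2 fold change 0.78, standard error 0.12, adjusted p = 0.00196 by edgeR), and IL16, a chemoattractant for CD4+ cells, rose by 0.65 (lost without any of the shNT libraries or shNR4A2 replicate 1, 0.063 to 0.132). TNF had 72.3, 71.9 and 51.6 against 55.5, 96.8 and 65.4 TPM with overlapping libraries (0.15, 0.21, 0.76). Of 28 interferon-stimulated genes 2 rose (7.14%, median 0.16; 6 higher and 1 lower with the block), the DNA sensor IFI16 by 0.74 and IFI35 by 0.49, the second a call lost without any of the shNT libraries or shNR4A2 replicate 3 (0.0637 to 0.135).

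Several lists that bear on NR4A2 or on inflammation held no called gene by edgeR. Over all genes tested, 3551 of 17720 had an unadjusted p under 0.05 and 3803 (21.5%) were called with the block. DESeq2 called 8.04% of the genes to which it gave an adjusted p. Among 15 NF-kB subunits and inhibitors 0 were called, with 2 at an unadjusted p under 0.05, 5 called with the block and 1 by DESeq2 (median 0.16). For 21 chemokines and receptors the numbers were 0, 5, 6 and 2 (median 0.08), and for 12 inflammasome genes 0, 4, 4 and 1 (median 0.20). Chemokine calls numbered 3 without shNT replicate 1 or shNR4A2 replicate 2 and 2 without shNR4A2 replicate 3, and inflammasome calls 2 without shNR4A2 replicate 2, all higher. For 18 genes of the ATF4 response 0 were called, 4 at an unadjusted p under 0.05, 6 with the block and 2 by DESeq2, and for 20 chaperones 0, 1, 3 and 1. Neither the 13 mitochondrially encoded genes nor the 33 nuclear genes of the respiratory chain held a call by edgeR or DESeq2 or an unadjusted p under 0.05, and the block called 0 and 1 of them. Of 10 classical NR4A2 targets of dopamine neurons 3 passed the filter, and 0 of these had an unadjusted p under 0.05 or was called by edgeR, with or without the block, or by DESeq2.

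WNT7B, a secreted Wnt ligand, was called alone among 20 Wnt genes tested (5.00%, median 0.11; 3 higher and 2 lower with the block). It had 8.83, 14.8 and 12.2 TPM in shNT and 30.2, 52.8 and 29.4 TPM in shNR4A2 cells (log2 fold change 1.65, standard error 0.25, adjusted p = 0.00202 by edgeR), and replicate 2 was the highest library of both lines. Since hairpins are processed by the machinery of RNA interference, its 13 genes were read as well. AGO2, the slicing Argonaute, fell from 25.1, 19.2 and 33.6 to 17.3, 16.9 and 15.4 TPM (-0.64, 0.15, 0.0246) and XPO5, the exporter of precursor hairpins, from 69.6, 64.9 and 72.6 to 55.8, 49.3 and 55.9 TPM (-0.36, 0.09, 0.0389), which is 15.4% of the list (median -0.20). The call of AGO2 did not hold with the replicate block (0.0822) or without shNT replicate 1 or 3 or shNR4A2 replicate 3 (0.0594 to 0.104), and that of XPO5 held only without shNR4A2 replicate 2 (0.0635 to 0.137 otherwise). Their part in the other results was not tested.

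Promoters were searched for the element that NR4A monomers bind. RefSeq promoters of GRCh38.p14 (250 bases before the start site to 50 after it) were matched by symbol for 12001 of the genes tested, 729 of them called. The NBRE, taken as AGGTCA preceded by a pair of A bases on either strand, was found in the promoter of 3 called genes (0.412%), against 142 of all tested genes with a promoter (1.18%) and 1.21% of the 34796 promoters of the table. The shorter AGGTCA, which includes every NBRE, was found in 95 of the 729 called genes and in 13.8% of all tested genes. A match describes the letters in this window only. The 3 promoters are printed 5′ to 3′ on the strand of the gene, with the NBRE, which lies on the opposite strand in all 3, in capitals, because they are the called genes in which the receptor's own element could be shown beside the change.
ILDR2 (chr1:166975491-166975790, minus strand): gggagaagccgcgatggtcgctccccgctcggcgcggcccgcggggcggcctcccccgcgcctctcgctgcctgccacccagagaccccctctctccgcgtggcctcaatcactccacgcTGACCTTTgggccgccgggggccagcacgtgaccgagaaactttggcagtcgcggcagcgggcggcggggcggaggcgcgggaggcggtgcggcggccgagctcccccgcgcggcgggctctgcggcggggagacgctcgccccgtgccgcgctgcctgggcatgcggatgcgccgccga
PLAGL1 (chr6:144055213-144055512, minus strand): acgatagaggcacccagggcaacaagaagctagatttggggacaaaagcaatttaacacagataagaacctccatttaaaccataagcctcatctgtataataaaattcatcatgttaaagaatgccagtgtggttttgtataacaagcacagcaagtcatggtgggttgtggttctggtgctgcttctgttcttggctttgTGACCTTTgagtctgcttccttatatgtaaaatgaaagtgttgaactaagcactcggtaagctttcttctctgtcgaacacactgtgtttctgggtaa
IQCN (chr19:18274403-18274702, minus strand): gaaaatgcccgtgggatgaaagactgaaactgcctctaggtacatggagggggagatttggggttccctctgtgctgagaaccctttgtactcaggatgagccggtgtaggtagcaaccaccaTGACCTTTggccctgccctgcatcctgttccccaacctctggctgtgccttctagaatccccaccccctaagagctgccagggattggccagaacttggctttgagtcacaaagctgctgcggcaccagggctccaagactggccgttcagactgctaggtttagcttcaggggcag

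The element began 130, 48 and 127 bases before the start site in ILDR2, PLAGL1 and IQCN. ILDR2, an immunoglobulin-domain membrane protein, had 0.784, 0.945 and 1.29 TPM in shNT and 0.421, 0.590 and 0.581 TPM in shNR4A2 cells (log2 fold change -0.92, standard error 0.24, adjusted p = 0.044 by edgeR). PLAGL1, an imprinted zinc finger factor, fell from 20.0, 20.3 and 21.5 to 13.4, 16.0 and 16.4 TPM (-0.43, 0.11, 0.0443). IQCN rose from 1.46, 1.00 and 1.27 to 2.94, 2.21 and 2.19 TPM (0.98, 0.21, 0.0151). All 3 were called with the block, and all 3 lost their call without shNT replicate 2 or 3 or shNR4A2 replicate 1 (ILDR2 and PLAGL1 also without shNR4A2 replicate 3, PLAGL1 also without shNT replicate 1).

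The same lines were compared in the other conditions, in libraries that the basal comparison at 5% CO2 did not use. Of its 1008 genes, 1006 had the same sign at 10% CO2, 992 at 5% CO2 with LPS and 983 at 10% CO2 with LPS. They were called in the same direction in 781 cases (77.5%), 606 (60.1%) and 776 (77.0%), where 7.95%, 6.21% and 18.9% of all genes tested were called, and 518 (51.4%) were called in all 3. The conditions share the lines, so this repeats the difference between lines and does not separate depletion from it. A median ratio of the change there to that in basal cells at 5% CO2 was taken over 356 of the 1008 genes. These had a basal log2 fold change of at least 1 in size, and the ratios were 0.922, 0.915 and 0.919. AKR1C2 had 3.38, 3.65 and 3.70 in these conditions, HUNK -3.16, -2.94 and -2.97, LYZ 1.67, 1.76 and 1.70, LILRB1 1.84, 1.69 and 2.04 and HPRT1 -1.96, -2.08 and -1.91, all called. The surface marker list held 11, 10 and 12 genes called higher of 23 and 0 lower, with medians of 0.64, 0.55 and 0.79.

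FOS, at 0.91 in basal cells, stood at 0.91 at 10% CO2 (called) and at 0.40 and 0.29 with LPS (adjusted p = 0.125 and 0.32), and KLF4, at 0.87, stood at 0.91 (called), -0.05 and -0.19 (0.936 and 0.425). MYC, at -0.62, stood at -0.73 (called), and with LPS at 0.52 (0.184) and 0.46 (0.0244). Whether the difference between lines depended on LPS at 5% CO2, or on CO2 without LPS, was tested as interactions over 12 libraries each, a test added after the data were seen. Without the replicate block edgeR called 0 genes in either, with 392 and 192 of 17720 at an unadjusted p under 0.05. With the block the interaction with CO2 still held 0 calls (252 at an unadjusted p under 0.05, or 258 with a separate block in each condition). The interaction with LPS held 8 calls with 1 block effect for each replicate number (719 at an unadjusted p under 0.05), KLF4 among them (-0.92, standard error 0.16, adjusted p = 0.0432), and 66 with a separate block in each condition (1062), KLF4 (0.000688) and MYC (1.11, 0.10, 3.46e-07) among them. FOS passed in neither (0.72 and 0.0799), and MYC had an adjusted p of 0.139 in the first.

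**Figure D5:**
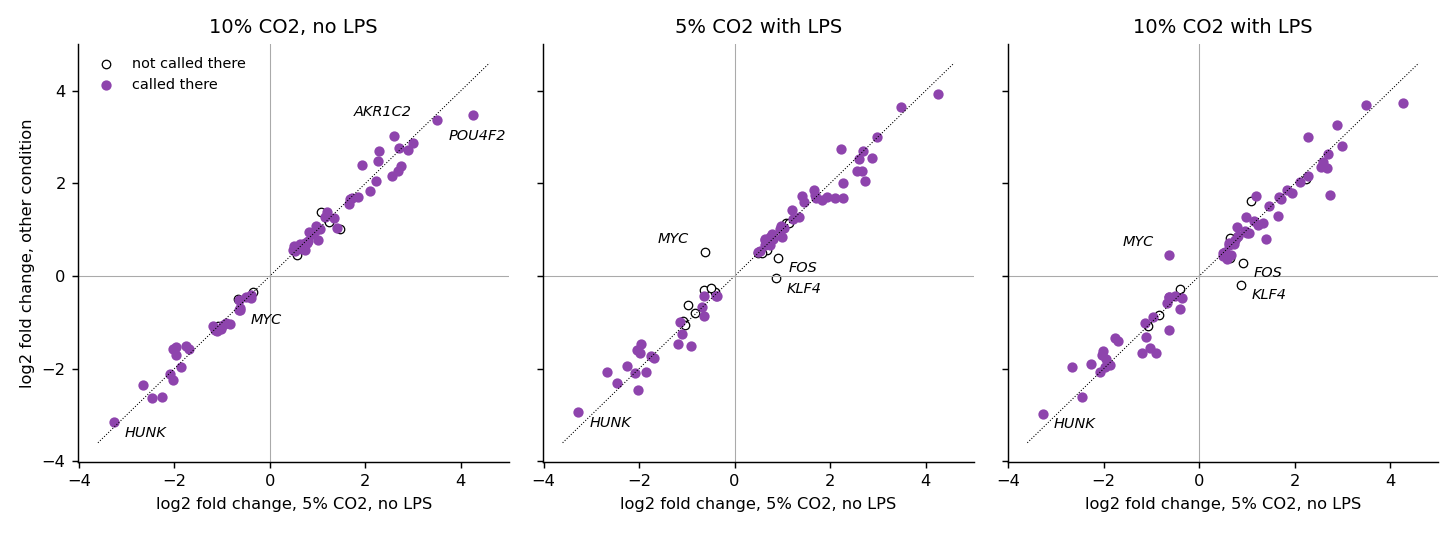
Log2 fold change of shNR4A2 over shNT cells for the called genes named by rule, at 5% CO2 without LPS (horizontal) and in the other 3 conditions (vertical). Filled points were called there too, and the dotted line marks equal values. HUNK stays near the line in all 3 panels, and MYC lies above 0 in the panels with LPS.

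The shNR4A3 line offers another hairpin in the same cells. It shares the shNT libraries with the comparison above, so its values are set beside those of shNR4A2 cells and differences were taken from the direct comparison of both knockdown lines, in which 479 genes were called (2.7%, and 6.19% were called in shNR4A3 against shNT cells). NR4A2 transcript was not called between the knockdown lines (log2 fold change of shNR4A2 over shNR4A3 cells -0.63, standard error 0.24, adjusted p = 0.225), at 2.51, 2.97 and 3.31 TPM in shNR4A3 cells, while NR4A3 was (3.14, 0.52, 0.00379), at 0.158, 0.107 and 0.0315 TPM.

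For AKR1C2, POU4F2, HPRT1, SEZ6L2 and LAMTOR5, shNR4A3 cells stood near shNT cells and away from shNR4A2 cells. AKR1C2 had 49.2, 35.7 and 37.7 TPM in shNR4A3 cells (-0.18 against shNT, adjusted p = 0.52, and 3.67 between the knockdown lines, 8.83e-09 by edgeR). POU4F2 was at 0.317, 0.504 and 0.823 TPM (4.49 between the knockdown lines, 1.24e-05), HPRT1 at 125, 115 and 132 TPM (-1.99, 2.17e-06), SEZ6L2 at 143, 156 and 135 TPM (-1.64, 4.34e-06) and LAMTOR5 at 102, 101 and 93.5 TPM (-1.14, 8.45e-05). WNT7B (1.95, 0.00932), TBXAS1 (1.17, 0.000707), HMGCS1 (-1.25, 4.59e-05), MYC (-0.55, 0.00579) and FCGR2B (1.20, 0.00344) differed between the knockdown lines as well. TNF was a different case, since it was called lower in shNR4A3 than in shNT cells (-1.02, 0.0396, at 19.3, 39.8 and 35.2 TPM) and lower than in shNR4A2 cells (1.17 for shNR4A2 over shNR4A3, 0.0262), and was uncalled between shNR4A2 and shNT cells.

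For others the direct comparison made no call. HUNK had 0.409, 0.355 and 0.216 TPM in shNR4A3 cells (log2 fold change against shNT -3.06, and -0.20 with standard error 0.41 and adjusted p = 0.901 between the knockdown lines), and PGR 1.53, 2.28 and 1.38 TPM (-1.94, and -0.11, 0.19, 0.886). LILRB4 (0.92 against shNT, and 0.03 between the knockdown lines), ITGAL (1.08, and -0.11), KLF4 (0.92, and -0.05), SRGN (-0.55, and -0.09) and IFI35 (0.45, and 0.04) showed the same, with adjusted p of 0.767 to 0.946 between the knockdown lines. LYZ was higher still in shNR4A3 cells, at 1039.9, 708 and 901 TPM (2.26 against shNT), without a call between the knockdown lines (-0.58, 0.17, 0.094). Of the surface marker list 5 genes were called higher and 0 lower in shNR4A3 against shNT cells, with a median of 0.64, and of the MHC class II list 5 and 0, with a median of 0.38. Between the knockdown lines 3 surface markers were called higher and 1 lower in shNR4A2 cells, with a median of 0.14, and 0 MHC class II genes. A missed threshold does not show that the lines act alike. CKAP4 and ITGA4 differed between the knockdown lines, since CKAP4 was lower in shNR4A3 cells (32.2, 52.6 and 38.3 TPM, 2.07 between the knockdown lines, 4.59e-05) and ITGA4 higher (44.1, 65.6 and 55.8 TPM, -1.15, 0.00016).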

How the data were processed

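RNA was measured by polyA-selected, paired-end sequencing (HiSeq). Per the submitters' processing notes the authors used Trimmomatic 0.36, STAR 2.5.2b and featureCounts of Subread 1.5.2 on GRCh38, and deposited raw counts per gene. Annotation release, strandedness and the unit counted (read or pair) are not given in the sources used here, so overlapping and antisense genes may share counts. Gene names were taken by gene ID from GENCODE v44 (56410 of 57500 IDs, 98.1%). TPM were derived here from counts and the deposited gene lengths.

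Groups were taken from the sample titles. Counts were analysed with edgeR 4.0.16 (R 4.3.3, quasi-likelihood test, robust, TMM, filter by a minimum count of 10 and a minimum total of 15 over all 36 libraries, 17720 genes), on the 6 libraries of a comparison, and p-values were adjusted by Benjamini-Hochberg. A gene was called at an adjusted p under 0.05. Standard errors were derived from the F statistic. Alternatives were DESeq2 1.42.0, other scalings and filters, 1 fit to all libraries, stricter thresholds, the replicate number as a block and leaving out each library. The script was tested on simulated data.

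Replicate numbers pair the samples here: deviations from the group means of same-numbered shNT and shNR4A2 libraries correlated at r = 0.176, 0.170 and 0.214 over 17720 genes (0.553, 0.675 and 0.604 over 9533 genes with a mean of at least 10 CPM). The same held at 5% CO2 with LPS (0.183, 0.273 and 0.287 over 17720 genes) but not at 10% CO2 without LPS (0.181, -0.060 and -0.049). At 10% CO2 with LPS the values were 0.327, 0.238 and 0.071. The main fit held no block because the study's methods state none, so it left this pairing out. The block was run as an alternative and called 3803 genes where the main fit called 1008. Calls, missed thresholds and fits without 1 library refer to the fit without the block unless stated. The libraries carry 17132910 to 23929138 counts, and the biological coefficient of variation was 12.4%.

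The genes, lists and tests were chosen with earlier results of these data known. Named genes were the 3 NR4A receptors, the 10 largest called protein-coding changes in each direction (mean of at least 1 CPM, no overlap), the 6 most abundant called protein-coding genes in each direction with a log2 change of at least 1, up to 3 called members of each list by adjusted p, and WNT7B and TNF. Some genes that met these rules are not reported here.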

Additional observations from a re-analysis of the deposited data

Results flagged for a closer look

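In 5 genes the difference between shNR4A2 and shNT cells at 5% CO2 without LPS had the opposite sign in a condition with LPS, and the libraries of the lines did not overlap in either of the conditions set side by side in counts per library size (on the TPM scale those of GCNT1 overlapped with LPS). Each was called at 5% CO2 without LPS and called in the opposite direction at 10% CO2 with LPS. MYC, the driver of proliferation, had a log2 fold change of -0.62 without LPS and 0.46 at 10% CO2 with LPS, where its level was 37.9, 31.7 and 38.2 TPM in shNT and 55.5, 41.3 and 53.5 TPM in shNR4A2 cells. CFLAR, the caspase-8 inhibitor cFLIP, had -0.52 and 0.39, MID2, a ubiquitin ligase of microtubules, -0.81 and 0.41, and KANK1, a regulator of actin, -0.63 and 0.56. These conditions differ in CO2 as well as in LPS, and the difference between them was not tested. At 5% CO2 with LPS none of these 4 was called: MYC had 0.52 (adjusted p = 0.184 by edgeR), CFLAR 0.23 (0.396), KANK1 0.40 (0.196) and MID2 -0.01 (0.975), so that MID2 kept its sign there. GCNT1, a glycosyltransferase that branches O-glycans, had 0.63 without LPS and -0.30 at 5% CO2 with LPS (adjusted p = 0.203 by edgeR, and -0.47 at 10% CO2 with LPS). At 5% CO2 the dependence on LPS was tested as an interaction, added after the data were seen, and none of the 5 passed without the replicate block (edgeR's adjusted p of at least 0.855). With 1 block effect for each replicate number GCNT1 passed (0.0482) and the others had 0.0579 to 0.284, and with a separate block in each condition MYC (3.46e-07), GCNT1 (0.000617), CFLAR (0.00272) and KANK1 (0.00396) passed and MID2 did not (0.0608). Without the block the sizes were 1.14 for MYC (standard error 0.22), 1.03 for KANK1 (0.23), 0.75 for CFLAR (0.18), 0.79 for MID2 (0.21) and -0.93 for GCNT1 (0.23). Without LPS the call of MYC held in every fit that left out 1 library, and the others were lost in at least 2: CFLAR without shNT replicate 1 or 3, MID2 without shNT replicate 2 or 3, KANK1 without these or shNR4A2 replicate 1, and GCNT1 without any shNT library or shNR4A2 replicate 1 (0.0504 to 0.162).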

How the results depend on the processing

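The count of 1008 genes was 1013 with RLE size factors, 1009 with library size alone, 1483 without a filter, 966 with a mean of at least 1 CPM and 896 with a fold change of at least 1.4. It was 3803 with the replicate block, 1791 in 1 fit to all 36 libraries, 417 at an adjusted p under 0.01, and 507 to 1221 when 1 library was left out. The log2 fold change of NR4A2 was -1.08 to -0.81 without 1 library, and at an adjusted p under 0.01 its value of -0.91 was not called. Of 77 named genes 74 were called, 53 of them in every fit without 1 library, 72 with the block (HMOX1 and AGO2 were lost) and 73 by DESeq2 (HMOX1, 0.0518).

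In the other comparisons the block gave 4369 genes at 5% CO2 with LPS (1101 without it), 6161 at 10% CO2 with LPS (3344), 2299 for shNR4A3 against shNT (1097) and 1992 between the knockdown lines (479). The interaction of line with LPS at 5% CO2 (0 genes without the block) held 8 with it and 66 with a separate block in each condition. In 1 fit to all libraries there were 2212 genes at 5% CO2 with LPS and 975 between the knockdown lines, and without a filter 1834 and 814. An adjusted p under 0.01 left 683 at 10% CO2 (1409 otherwise), 353 and 1618 with LPS, 491 for shNR4A3 and 200 between the knockdown lines, and a fold change of at least 1.4 left 1808 at 10% CO2 with LPS. Without 1 library the ranges were 750 to 1505 at 10% CO2, 430 to 1543 and 1897 to 3745 with LPS at 5% and 10% CO2, 667 to 1014 for shNR4A3 and 240 to 467 between the knockdown lines. A stricter threshold lowers the number by construction. Leaving out 1 library lowered it in some fits and raised it in others. Without shNR4A2 replicate 2 it rose from 1008 to 1221 in the basal comparison at 5% CO2. The cause of the shifts other than those by threshold was not tested.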
